A study of Mus musculus with 12 samples.

Results

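The respiratory chain genes are described here in bone marrow progenitors after treatment with a STING agonist. Members were the protein-coding genes listed in both count tables whose symbols name subunits of NADH dehydrogenase (Nduf genes), succinate dehydrogenase (Sdh), cytochrome bc1 (Uqcr and Cyc1), cytochrome c oxidase (Cox4 to Cox8) and ATP synthase (Atp5), together with every mitochondrially encoded protein gene (mt-). The rule found 103 of the 24982 genes shared by the tables, 90 of them nuclear and 13 mitochondrially encoded. The rule reads symbols and biotype. The nuclear members were 36 subunits and 8 assembly factors of complex I, 4 subunits of complex II, 9 of complex III, 16 of complex IV and 15 of complex V, the ATP synthase coupling factor Atp5s and the supercomplex factor Cox7a2l. A further 3 matching genes were listed in a single table and are not members: Ndufa4l2 and Cox8b among GMP genes and Cox8c among LSK genes.

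The libraries form 4 groups of 3: GMP from mice given the STING agonist diABZI, GMP from control mice, LSK-labelled cells from mice given diABZI, and LSK-labelled cells from control mice. All mice were C57BL/6 and, by the series title, carried melanoma. GMP are granulocyte-monocyte progenitors, LSK is a sort name for lineage-negative cells with Sca-1 and Kit, and diABZI is a small molecule that activates STING, the adaptor of cytosolic DNA sensing. RNA was amplified by Smart-Seq2, a full-length method for small inputs. The labels speak of single-cell samples but give 1 column of counts per library and no number of cells, and they give no dose, time, age or sex. Whether replicates come from different animals is not stated, so the p-values cover library-to-library spread alone, and that spread can be technical.

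Complexes I to IV pass electrons from NADH and succinate to oxygen. Complexes I, III and IV also pump protons across the inner mitochondrial membrane. Complex V, the ATP synthase, lets the protons back in to make ATP. Complex II is made from nuclear genes alone, whereas complexes I, III, IV and V combine nuclear subunits with core subunits read from mitochondrial DNA. Mitochondrial DNA is transcribed as long polycistronic RNAs from each strand by a dedicated polymerase and then cut at transfer RNAs, so its genes share their transcription and differ in the processing and stability of their RNAs. Haematopoietic stem cells are known for relying little on respiration, which increases as progenitors differentiate.

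Totals were 30649314 to 47225983 counts per library, and a level here is the CPM, a count scaled to a library total of 1000000. Tests used edgeR's quasi-likelihood method on the counts of all genes with TMM scaling and Benjamini-Hochberg adjustment over all genes tested; a gene is called at an adjusted p under 0.05. Some libraries stood apart over the nuclear members with at least 5 CPM in their group. GMP control replicate 3 was the highest of its group for 66 of 83 such members and replicate 2 the lowest for 64, with a median ratio of highest to lowest library of 2.27, against 1.31 in GMP given the agonist. LSK control replicate 3 was the highest of its group for 62 of 81. The LSK name did not match the level of Ly6a, which encodes Sca-1. Ly6a had 5.31 to 9.07 CPM in LSK-labelled cells given the agonist and 0.402 to 0.827 CPM in their controls. Gata1, an erythroid and megakaryocytic factor, had 288 to 426 CPM and 363 to 575 CPM. The 11 stem and multipotent markers, Ly6a and Kit among them, summed to 204 to 433 CPM and 464 to 918 CPM. In GMP these markers summed to 784 to 852 CPM with the agonist and 844 to 1063 CPM in controls. The cells with the LSK name are therefore called LSK-labelled. In GMP the granulocyte genes Mpo and Elane were abundant, at 19928 to 25672 and 12456 to 13775 CPM with the agonist and 19487 to 20921 and 8657 to 15586 CPM in controls. In bulk libraries fewer cells of a type and less RNA per cell cannot be told apart.

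The mitochondrially encoded protein genes as a group were high in LSK-labelled cells given the agonist. Their summed level was 27914, 26940.5 and 21075 CPM in LSK-labelled cells given the agonist, against 13170.0, 13122 and 15884 CPM in LSK-labelled controls. The groups did not overlap, and the lowest agonist library was above the highest control library. In GMP the sum was 15048, 14588 and 9423 CPM with the agonist and 15812, 11541 and 16134 CPM in controls, and these groups overlapped. The nuclear members summed to 17435, 17164 and 15758 CPM in LSK-labelled cells given the agonist and 14674, 15621 and 18011 CPM in LSK-labelled controls. The nuclear sum was 14772, 14321 and 15015 CPM in GMP given the agonist and 13021, 10916 and 15519 CPM in GMP controls, so it overlapped between treatments in both cell types. Per library, the mitochondrially encoded sum over the nuclear sum was 1.601, 1.57 and 1.34 in LSK-labelled cells given the agonist, against 0.898, 0.840 and 0.882 in their controls. The ratio was 1.02, 1.02 and 0.628 in GMP given the agonist, against 1.21, 1.06 and 1.04 in GMP controls. It was thus higher in every agonist library of LSK-labelled cells and lower in every agonist library of GMP, and the difference between the cell types was not tested on this ratio. Mitochondrial ribosomal RNA, outside the members, held 0.817%, 0.650% and 0.617% of counts in LSK-labelled cells given the agonist. It held 1.10%, 0.384% and 0.450% in their controls, so these groups overlapped.

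**Figure D1:**
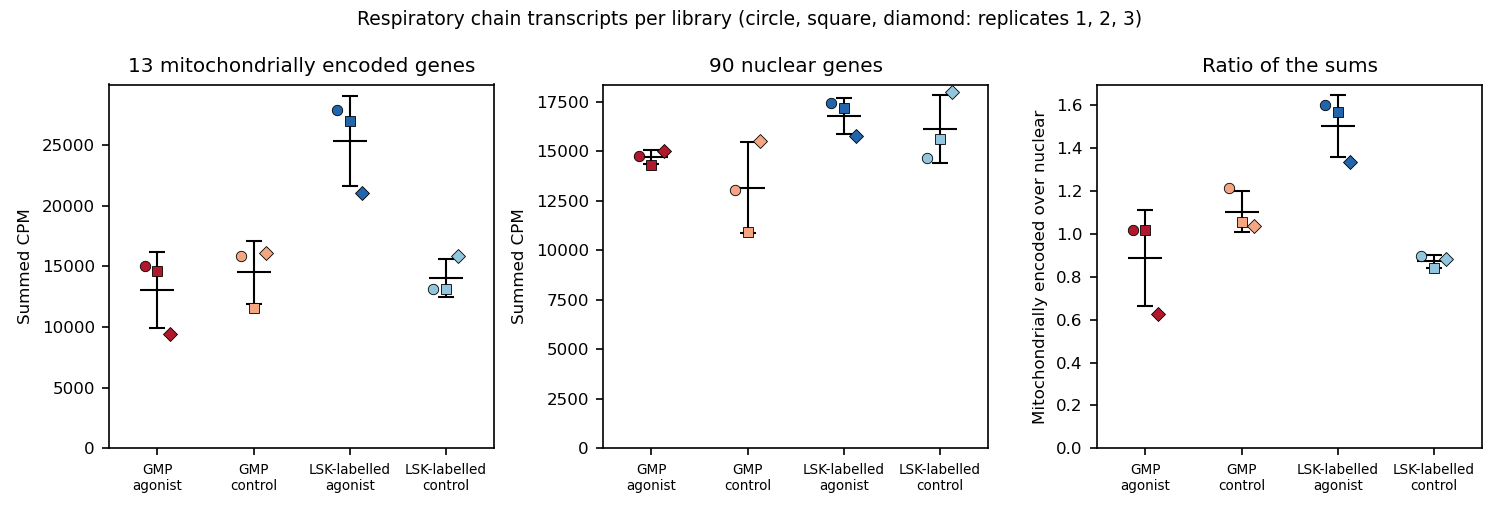
Summed CPM of the 13 mitochondrially encoded genes (left), of the 90 nuclear genes (middle) and their ratio (right) in each of the 12 libraries, with the mean and SD of each group of 3. The LSK-labelled agonist libraries lie at 21075 to 27914 CPM in the left panel, above all other libraries, while the groups in the middle panel overlap between treatments.

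Within the mitochondrial genome a few genes carried almost all counts. Per kilobase of gene, the order of mean levels over the 12 libraries was mt-Co1 (4301 CPM per kb), mt-Cytb (4211), mt-Nd1 (2639.7), mt-Nd2 (723), mt-Nd4 (694), mt-Nd6 (574) and mt-Nd5 (373). The catalytic subunit of cytochrome c oxidase, mt-Co1, and cytochrome b of complex III, mt-Cytb, stood above the others. Then came the complex V subunit mt-Atp6 at 56.8 CPM per kb, the copper subunit mt-Co2 at 8.73 and mt-Co3 at 2.98. The smallest, mt-Nd3 at 0.906, mt-Nd4l at 0.474 and mt-Atp8 at 0.0550 CPM per kb, had at most 33, 9 and 2 counts in any library. The 6 genes mt-Co2, mt-Co3, mt-Atp6, mt-Atp8, mt-Nd3 and mt-Nd4l together held 0.221% to 0.377% of the mitochondrially encoded counts, although mt-Co2, mt-Co3 and mt-Atp6 encode core subunits that every respiring cell needs.

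Most of the low genes lie in a stretch of mitochondrial DNA that has a near-identical nuclear copy on chromosome 1, annotated as pseudogenes. Of the 50-base windows of mt-Co2, mt-Co3, mt-Atp6, mt-Nd4l and mt-Nd3, 98.0% to 100% also occur in another annotated gene, and the share is 62.2% for mt-Nd4, 51.1% for mt-Co1, 8.19% for mt-Nd2 and 7.61% for mt-Nd5. It is 0% for mt-Nd1, mt-Nd6, mt-Cytb and mt-Atp8, but only annotated transcripts were searched. mt-Atp8 (chrMT:7766-7969) lies between mt-Co2 and mt-Atp6, which both have copies. The chromosome 1 stretch between those copies was not searched, so a copy of mt-Atp8 there would be missed. The first 60 bases of mt-Nd3 and mt-Co3 and of their copies show how little separates them. The capitals mark the only difference, written T3C with positions counted from the first base printed (mt-Nd3 has T and Gm28438 has C); the mt-Co3 pair is identical over these bases. The sequences come from GENCODE M21 transcripts (GRCm38), at chrMT:9459-9518 (plus strand), chr1:24613060-24613119 (minus), chrMT:8607-8666 (plus) and chr1:24613912-24613971 (minus), in the order given.
mt-Nd3: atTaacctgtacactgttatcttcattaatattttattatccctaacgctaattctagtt
Gm28438: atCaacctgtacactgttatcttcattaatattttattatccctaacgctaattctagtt
mt-Co3: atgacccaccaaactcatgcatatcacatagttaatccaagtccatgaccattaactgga
Gm28437: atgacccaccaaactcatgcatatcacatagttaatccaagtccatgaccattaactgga
Over the aligned bases, mt-Co2, mt-Co3, mt-Atp6 and mt-Nd4l are 100% identical to Gm28661, Gm28437, Gm10925 and Gm10222, and mt-Nd3 is 99.7% identical to Gm28438. How reads that match several places were counted is not given in the sources used here, so the levels of these 5 genes, and in part those of mt-Nd4 and mt-Co1, are uncertain. The same may hold for mt-Atp8. The 7 copies together had 68.5 to 93.8 CPM in LSK-labelled cells given the agonist and 33.7 to 52.0 CPM in their controls, and 28.8 to 44.0 CPM in GMP given the agonist and 41.8 to 52.9 CPM in GMP controls. Neighbouring mitochondrial genes overlap as well, by 43 bases for mt-Atp8 and mt-Atp6 and, on opposite strands, by 14 bases for mt-Nd5 and mt-Nd6.

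The first comparison asked how the agonist changed these genes in LSK-labelled cells. The mitochondrially encoded gene mt-Co1 (ENSMUSG00000064351, chrMT:5328-6872) rose, and it was the only member called by edgeR; DESeq2 called 6 mitochondrially encoded and 4 nuclear members and limma-voom no nuclear member. It had 12989.5, 11952 and 8891 CPM in LSK-labelled cells given the agonist, against 5160.1, 4628 and 5043 CPM in LSK-labelled controls. Every agonist library was above every control library, with a log2 change of 1.34 ± 0.20 (SE, n = 3 each) and an adjusted p of 0.0382 by edgeR. Of all 13922 genes tested, edgeR called 0.338%, all of them higher with the agonist. DESeq2 called 263 higher and 256 lower of the 12219 genes to which it gave an adjusted p. Leaving out any of 5 of the 6 libraries raised the adjusted p of mt-Co1 above the threshold, the exception being agonist replicate 3, and the adjusted p ranged from 0.0113 to 0.270 over the 6 cases. The log2 change with 1 library left out was 1.21 to 1.52, and a fit of all 12 libraries also ended the call.

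The other 10 mitochondrially encoded genes tested did not pass by edgeR, and all 10 had log2 changes above 0; without LSK agonist replicate 2 or LSK control replicate 2, 10 of the 11 tested were above 0. With no filter on low counts 4 of 13 were called, 12 were above 0 and 1 below. mt-Nd4l, not tested otherwise, averaged 0.103 CPM with the agonist and 0.143 CPM in controls. The complex I core subunit mt-Nd4 had 1506, 1545 and 1231 CPM in LSK-labelled cells given the agonist and 727, 847 and 975 CPM in controls, a log2 change of 0.89 ± 0.21 (adjusted p = 0.216, edgeR). mt-Nd2 had 1369, 1042 and 912 CPM with the agonist and 429, 394 and 770 CPM in controls (1.20 ± 0.31, adjusted p = 0.270). Both sets of libraries were fully apart. mt-Nd6, the only protein gene on the other strand, had 491, 336 and 339 CPM with the agonist and 152, 92.3 and 246 CPM in controls (1.39 ± 0.36, adjusted p = 0.270, edgeR). No strand setting is named for the counts, so whether RNA of the opposite strand was counted for mt-Nd6 is not known. For mt-Nd5 the levels were 938, 956 and 953 CPM with the agonist and 376, 404 and 750.1 CPM in controls, a log2 change of 1.02 ± 0.29. In these genes LSK control replicate 3 was the highest control library and the nearest to the agonist libraries.

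mt-Cytb had 6844, 7555 and 5632 CPM with the agonist and 4224, 4567 and 5095 CPM in controls (0.67 ± 0.19, adjusted p = 0.291). mt-Nd1 had 3701, 3483 and 3059 CPM with the agonist and 2072, 2153 and 2953 CPM in controls (0.65 ± 0.21, adjusted p = 0.337). Their libraries did not overlap either. mt-Atp6, mt-Co2 and mt-Co3 had log2 changes of 0.88, 1.44 and 1.06 with adjusted p of 0.360 or more, and mt-Nd3 had 0.26. All 11 mitochondrially encoded genes tested were above 0, with a median log2 change of 1.02, against 51.2% of all genes and a median of 0.02. The libraries did not overlap, with the agonist higher, for 10 of the 11, against 7.13% of all genes. Scaling by library size alone moved the median of all genes to -0.12 and that of the mitochondrially encoded genes to 0.90, with 11 of 11 still above 0.

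The mix of mitochondrially encoded transcripts also differed. mt-Co1 made up 42.2% to 46.5% of the mitochondrially encoded counts in LSK-labelled cells given the agonist and 31.8% to 39.2% in their controls. mt-Cytb made up 24.5% to 28.0% with the agonist and 32.1% to 34.8% in controls, and mt-Nd1 12.9% to 14.5% and 15.7% to 18.6%. The share of mt-Co1 was thus higher, and those of mt-Cytb and mt-Nd1 lower, in every agonist library. In GMP the share of mt-Co1 was 31.5% to 39.2% with the agonist and 34.9% to 42.3% in controls, which overlap.

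**Figure D2:**
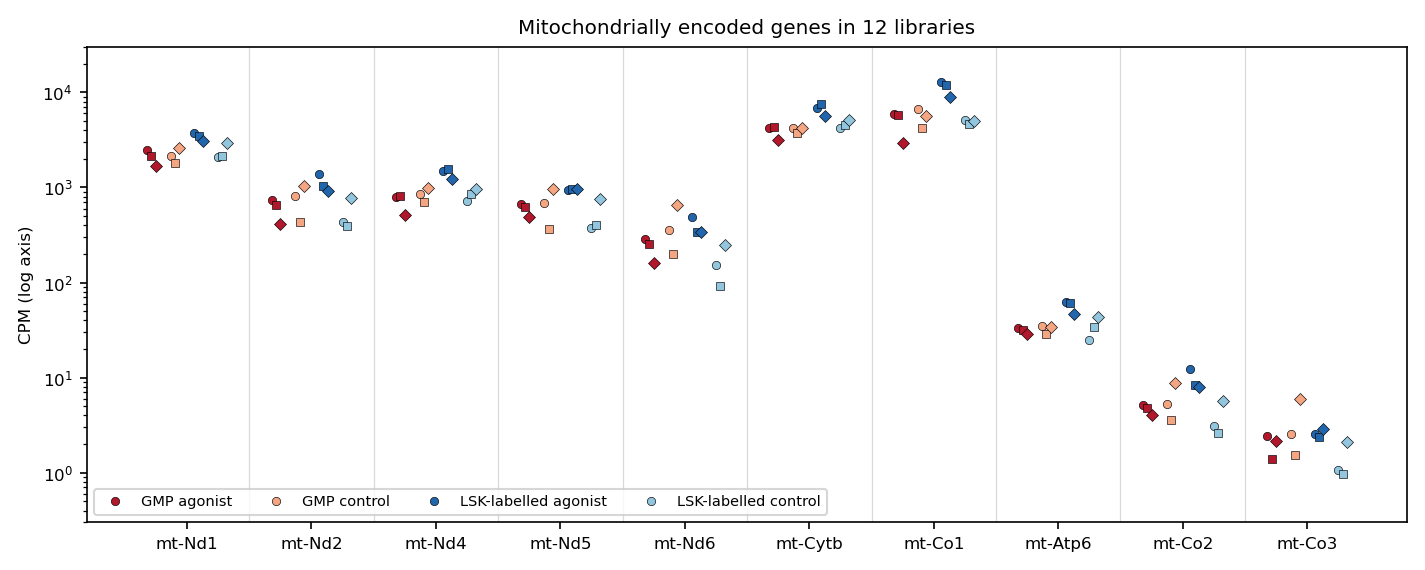
CPM, on a log axis, of 10 mitochondrially encoded genes in the 12 libraries (circle, square and diamond are replicates 1, 2 and 3). For mt-Co1 the LSK-labelled agonist libraries lie at 8891 to 12989.5 CPM and all other libraries at 2969 to 6684 CPM; mt-Co2 and mt-Co3 stay at or below 12.2 and 5.97 CPM in every library.

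None of the 86 nuclear members tested in LSK-labelled cells was called by edgeR. At an unadjusted p under 0.05 it had 18 higher and 2 lower, against 5.82% higher and 5.98% lower of all genes. DESeq2 called 4 (2 higher and 2 lower), beside 263 higher and 256 lower of 12219 genes, and limma-voom called 0 of the members. The median log2 change of the nuclear members was 0.55, with 78 of 86 above 0. It was 0.38 to 0.74 with 1 library left out, and by complex it was 0.61 for complex I subunits, 0.31 for complex II, 0.37 for complex III, 0.68 for complex IV and 0.51 for complex V. Libraries were fully apart, with the agonist higher, for 15 nuclear members, and lower for 4, against 7.13% and 12.7% of all genes.

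Nuclear members with the smallest p are given next, none of them passing by edgeR. Sdha (ENSMUSG00000021577, chr13:74322254-74350280), the flavoprotein of complex II that oxidises succinate, had 315, 441 and 524 CPM in LSK-labelled cells given the agonist, against 838, 1189 and 754 CPM in LSK-labelled controls. All agonist libraries were below all controls (log2 change -0.99 ± 0.25, adjusted p = 0.254, edgeR). A further 8 lay in the other direction with adjusted p of 0.288 to 0.361. Uqcr11, a small subunit of complex III, had 73.0, 51.3 and 54.1 CPM with the agonist and 35.5, 32.8 and 37.1 CPM in controls, a log2 change of 0.90 ± 0.25. Cox6a1, the common form of a regulatory complex IV subunit, had 813, 614 and 480 CPM with the agonist and 392, 397 and 399.6 CPM in controls (0.83 ± 0.23). In both genes the lowest agonist library was above the highest control. The complex IV subunits Cox7b (0.85), Cox6c (0.74) and Cox8a (0.67), the complex I accessory subunits Ndufb7 (0.74) and Ndufb3 (0.67), and the peripheral stalk subunit Atp5h of ATP synthase (0.71) had log2 changes of that size. Of the members described here, in the authors' deposited table mt-Co1, mt-Nd2, mt-Nd4, mt-Nd5, mt-Nd6, Uqcr11, Cox6a1 and Cox6b1 were higher and Sdha lower at an adjusted p under 0.05, for example mt-Co1 with a log2 change of 1.31 and Sdha with -1.02. That table has 398 genes higher and 379 lower among 15388 with an adjusted p. Among its 87 nuclear members with an adjusted p, 3 were higher and 2 lower.

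Other properties of the libraries moved with these values. Short genes were shifted as a whole: over all genes tested in LSK-labelled cells, those with up to 1000 bases of exon had a median log2 change of 0.47, those of the next class, up to 2000 bases, 0.27, and those over 3000 bases -0.08. The nuclear members in these classes had medians of 0.60 (18 genes), 0.60 (34 genes) and 0.22 (21 genes). Across the 86 nuclear members, which share libraries and are not independent, Spearman's rho of exon length and log2 change was -0.42. Cytosolic ribosomal protein genes held 4.79% to 6.08% of counts in LSK-labelled cells given the agonist and 3.19% to 4.57% in their controls. The 12 megakaryocyte and platelet markers summed to 197 to 306 CPM with the agonist (10 of 12 with counts; Pf4 at 1.05 to 6.16 CPM) and 356 to 830 CPM in controls (12 of 12; Pf4 at 14.7 to 29.6 CPM). The 14 erythroid markers summed to 11772 to 15919 CPM and 10546.5 to 14977 CPM, with counts for all 14 in both groups. The 11 stem and multipotent markers summed to 251, 204 and 433 CPM with the agonist and 918, 654 and 464 CPM in controls, which do not overlap, with counts for all 11 in both groups. The 10 granulocyte and monocyte progenitor markers summed to 3614, 1324 and 10994.5 CPM with the agonist and 4024, 388 and 4012 CPM in controls, with all 10 having counts in both groups. The part of length, ribosomal protein RNA and cell composition in the respiratory chain values was not tested.

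**Figure D3:**
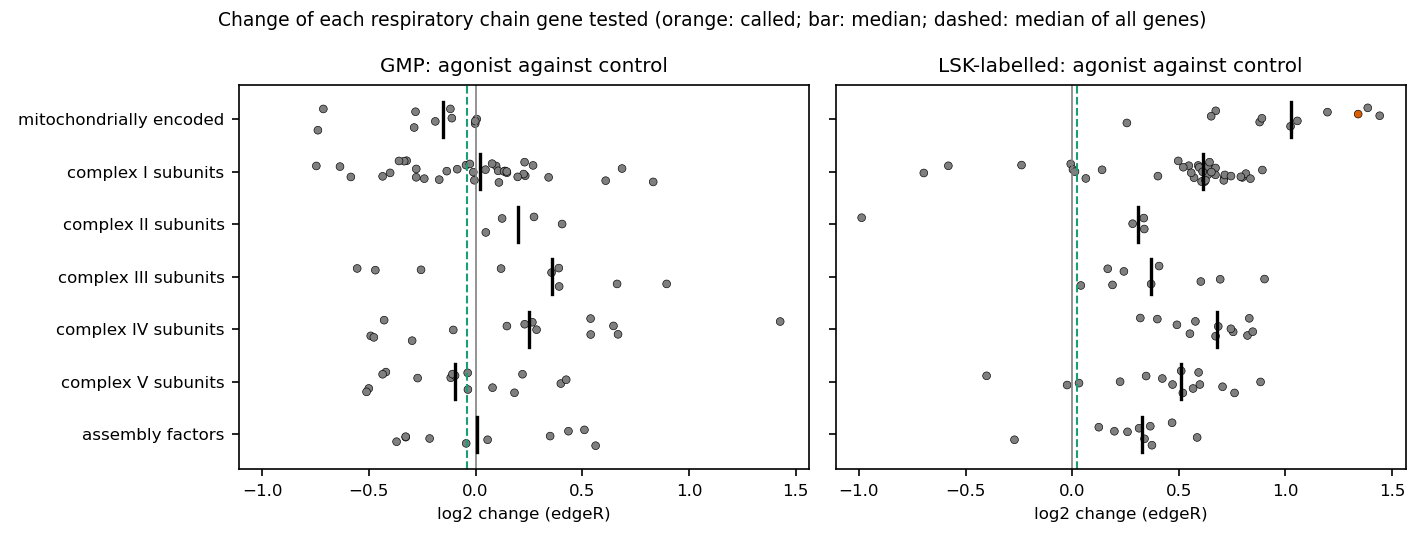
Log2 change (edgeR) of each member tested, by complex, after the agonist in GMP (left) and LSK-labelled cells (right), with the median of each row (bar), the called gene in orange and the median of all genes as a dashed line. On the right the medians of all rows lie above 0, at 1.02 for mitochondrially encoded genes, and Sdha stands apart at -0.99; on the left the mitochondrially encoded median is -0.15.

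**Figure D4:**
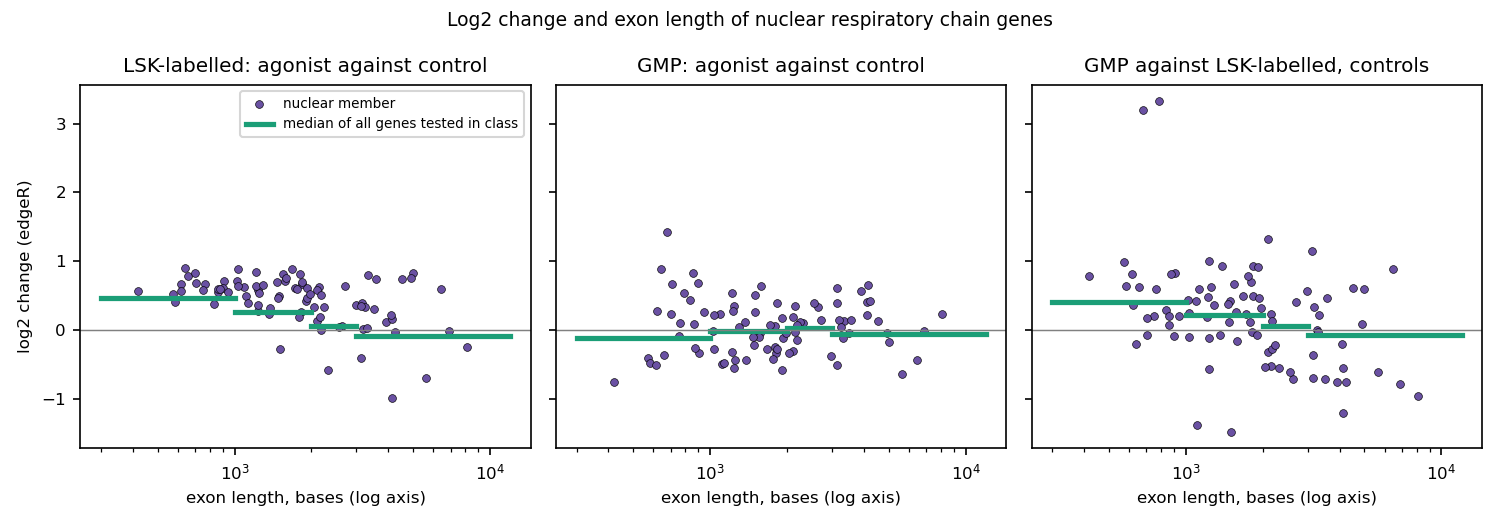
Log2 change of the nuclear members against exon length (log axis) in the agonist comparisons and in the comparison of GMP with LSK-labelled controls, with the median of all genes tested in each length class as bars. In the left panel the bars run from 0.47 for the shortest genes to -0.08 for the longest, and the members run in the same direction.

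In GMP no member was called, among 88 nuclear and 10 mitochondrially encoded genes tested, with 0.426% of all 15027 genes called (0.386% higher and 0.0399% lower). At an unadjusted p under 0.05 edgeR had 9 nuclear members higher and 0 lower, and no mitochondrially encoded member, against 4.3% higher and 4.84% lower of all genes; DESeq2 and limma-voom called 0 as well. The median log2 change was 0.07 for nuclear and -0.15 for mitochondrially encoded members, against -0.04 for all genes, and 47 of the 88 nuclear and 1 of the 10 mitochondrially encoded members were above 0, against 46.3% of all genes. These medians turned on single control libraries: without GMP control replicate 3 they were 0.49 (77 of 88 above 0) and 0.06, and without replicate 2 they were -0.13 (33 of 88) and -0.40. Leaving out agonist replicate 3 made them -0.03 and 0.01. The highest-ranked nuclear member was Uqcrc1, a core subunit of complex III, with 97.2, 87.3 and 82.7 CPM in GMP given the agonist and 62.9, 66.1 and 48.1 CPM in GMP controls (0.66 ± 0.19, adjusted p = 0.277, edgeR). Cox5b, a zinc-binding subunit of complex IV, had 95.2, 99.5 and 94.1 CPM with the agonist and 64.0, 56.7 and 71.9 CPM in controls (0.65 ± 0.19, adjusted p = 0.287). Neither overlapped between groups. Atp5b (ENSMUSG00000025393), the catalytic beta subunit of ATP synthase and the most abundant nuclear member, had 3509, 3682 and 3461 CPM with the agonist and 2970.0, 2754 and 2583 CPM in controls (0.42 ± 0.13, adjusted p = 0.316). The complex I assembly factor Ndufaf4 (0.56), the complex I subunits Ndufs5 (0.83), Ndufb8 (0.61) and Ndufs6 (0.69), Cox7b (0.54), cytochrome c1 Cyc1 (0.36) and the alpha subunit Atp5a1 of ATP synthase (0.40) followed, with adjusted p of 0.332 to 0.545. Libraries were fully apart, with the agonist higher, for 13 nuclear members and lower for 2, against 6.29% and 10.3% of all genes.

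Among the mitochondrially encoded genes in GMP, mt-Co1 had 5864, 5717 and 2969 CPM with the agonist and 6684, 4200.2 and 5634 CPM in controls, a log2 change of -0.12 ± 0.28 (adjusted p = 0.954, edgeR). mt-Nd6 had 288, 256 and 159 CPM with the agonist and 356, 201 and 660.2 CPM in controls (-0.74 ± 0.41, adjusted p = 0.655). Agonist replicate 3 was the lowest GMP library for mt-Co1, mt-Cytb, mt-Nd1, mt-Nd4 and mt-Nd6. No mitochondrially encoded gene had libraries fully apart in GMP. In the authors' deposited table Uqcrc1 was the only member with an adjusted p under 0.05 in GMP, with a log2 change of 0.67. That table has 269 genes higher and 187 lower among 16939 with an adjusted p. Megakaryocyte and platelet markers summed to 26.8 to 42.3 CPM in GMP given the agonist (10 of 12 with counts) and 69.8 to 134 CPM in GMP controls (10 of 12), and their part in these values was not tested.

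The effect of the agonist in GMP minus that in LSK-labelled cells was tested as an interaction in a fit of all 12 libraries. No member was called by edgeR, and no gene of the 16857 tested was. At an unadjusted p under 0.05 edgeR had 7 mitochondrially encoded members with a negative difference and 0 with a positive one, and 1 negative and 4 positive nuclear members, against 3.94% negative and 6.19% positive of all genes. DESeq2 called 1 mitochondrially encoded and 1 nuclear member, beside 89 positive and 87 negative of the 16174 genes to which it gave an adjusted p. By limma-voom 0 members were called. The differences for mt-Co1, mt-Nd6, mt-Nd4 and mt-Nd2 were -1.41 ± 0.40, -2.07 ± 0.62, -1.03 ± 0.34 and -1.43 ± 0.52 on the log2 scale, with adjusted p of 0.374 to 0.421. All 11 mitochondrially encoded genes tested were below 0 with a median of -1.26, where 50.3% of all genes were above 0, and 11 of 11 were below 0 with any 1 library left out. Sdha had the smallest p of the nuclear members, with a difference of 1.44 ± 0.37 (adjusted p = 0.374). Next to it by p stood, among others, Atp5a1 (0.85 ± 0.27), Atp5b (0.49 ± 0.22) and Cox7a2l (-0.64 ± 0.28), then Cox6b2 (-0.94), Atp5h (-0.75), Ndufaf1 (0.82), Ndufs1 (0.51) and Uqcrc1 (0.54). The median of the nuclear members was -0.43, and 0.01 without GMP control replicate 3.

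GMP were next compared with LSK-labelled cells in control mice. Of the 88 nuclear members tested, 7 were called by edgeR, all lower in GMP, against 6.98% of all 16857 genes called lower and 4.55% higher; the 7 belong to complexes I, II, IV and V, and the share is close to that of all genes. DESeq2 called 2 higher and 8 lower, beside 1520 and 1522 of the 15862 genes to which it gave an adjusted p. By limma-voom 2 were higher and 9 lower, beside 1440 and 1472 of 16857 genes. Without GMP control replicate 2, edgeR called 1 higher and 4 lower. No mitochondrially encoded gene of 11 was called by edgeR, and 1 was higher at an unadjusted p under 0.05, against 11.7% of all genes. DESeq2 and limma-voom called 1 each. Ndufs1 (ENSMUSG00000025968, chr1:63143596-63176833), the largest subunit of complex I with iron-sulfur clusters, had 145, 178 and 133 CPM in GMP controls, against 244, 285 and 341 CPM in LSK-labelled controls (-0.96 ± 0.18, adjusted p = 0.00564, edgeR). Ndufaf1, an assembly factor of complex I, had 48.3, 49.1 and 21.2 CPM in GMP controls and 96.6, 130.3 and 98.8 CPM in LSK-labelled controls (-1.48 ± 0.29, adjusted p = 0.00665). Atp5b had 2970.0, 2754 and 2583 CPM in GMP controls and 4291, 4859 and 4661 CPM in LSK-labelled controls (-0.75 ± 0.15, adjusted p = 0.00857). All GMP libraries were below all LSK-labelled libraries in these 3 genes. They also kept their call with any of the 12 libraries left out.

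Sdha was lower too, with 366, 549 and 311 CPM in GMP controls and 838, 1189 and 754 CPM in LSK-labelled controls (-1.20 ± 0.27, adjusted p = 0.0122). Cox6b2, an isoform of a complex IV subunit best known from testis, had 16.4, 11.1 and 12.2 CPM in GMP controls and 41.5, 36.2 and 25.5 CPM in LSK-labelled controls (-1.37 ± 0.31, adjusted p = 0.0146). Ndufv1, the NADH-binding subunit of complex I, had 188, 148 and 184 CPM in GMP controls and 263, 264 and 316 CPM in LSK-labelled controls (-0.71 ± 0.18, adjusted p = 0.0232). Atp5a1 closed the list with 613, 756 and 745 CPM in GMP controls and 951, 1217 and 1195 CPM in LSK-labelled controls (-0.69 ± 0.19, adjusted p = 0.0348). Groups did not overlap for any of the 7. Libraries were fully apart, with GMP lower, for 14 of the 88 nuclear members, against 14.9% of all genes. The calls of these last 4 were lost with some libraries left out, with adjusted p of up to 0.0646 for Sdha, 0.0594 for Cox6b2, 0.119 for Ndufv1 and 0.163 for Atp5a1, and 3 nuclear members were called without LSK control replicate 2. Ndufaf4 (-0.75, adjusted p = 0.0542) and Ndufaf7 (-0.71, adjusted p = 0.0789) were close to the threshold and did not pass.

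The direction of the nuclear members as a whole was not fixed by these libraries. Their median log2 difference between GMP and LSK-labelled controls was 0.23, with 56 of 88 above 0 against 51.7% of all genes, and without GMP control replicate 3 it was -0.20, with 28 of 88 above 0. Exon length moved with the values here as well: over all genes the median was 0.42 up to 1000 bases and -0.06 over 3000 bases, and over the nuclear members it was 0.48 (20 genes) and -0.20 (21 genes), with a Spearman's rho of -0.38 over 88 genes. The erythroid markers summed to 206 to 273 CPM in GMP controls (14 of 14 with counts; Gata1 at 3.69 to 9.86 CPM) and 10546.5 to 14977 CPM in LSK-labelled controls (14 of 14). The part of length and cell type in these values was not tested. mt-Nd6 had the smallest p of the mitochondrially encoded genes, with 356, 201 and 660.2 CPM in GMP controls and 152, 92.3 and 246 CPM in LSK-labelled controls (1.30 ± 0.44, adjusted p = 0.0803), and was called without LSK control replicate 3 or without GMP control replicate 2. In GMP control replicate 3, which had the highest mt-Nd6, mitochondrial ribosomal RNA made up 1.90% of counts, against 0.548% and 0.991% in the other GMP controls.

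**Figure D5:**
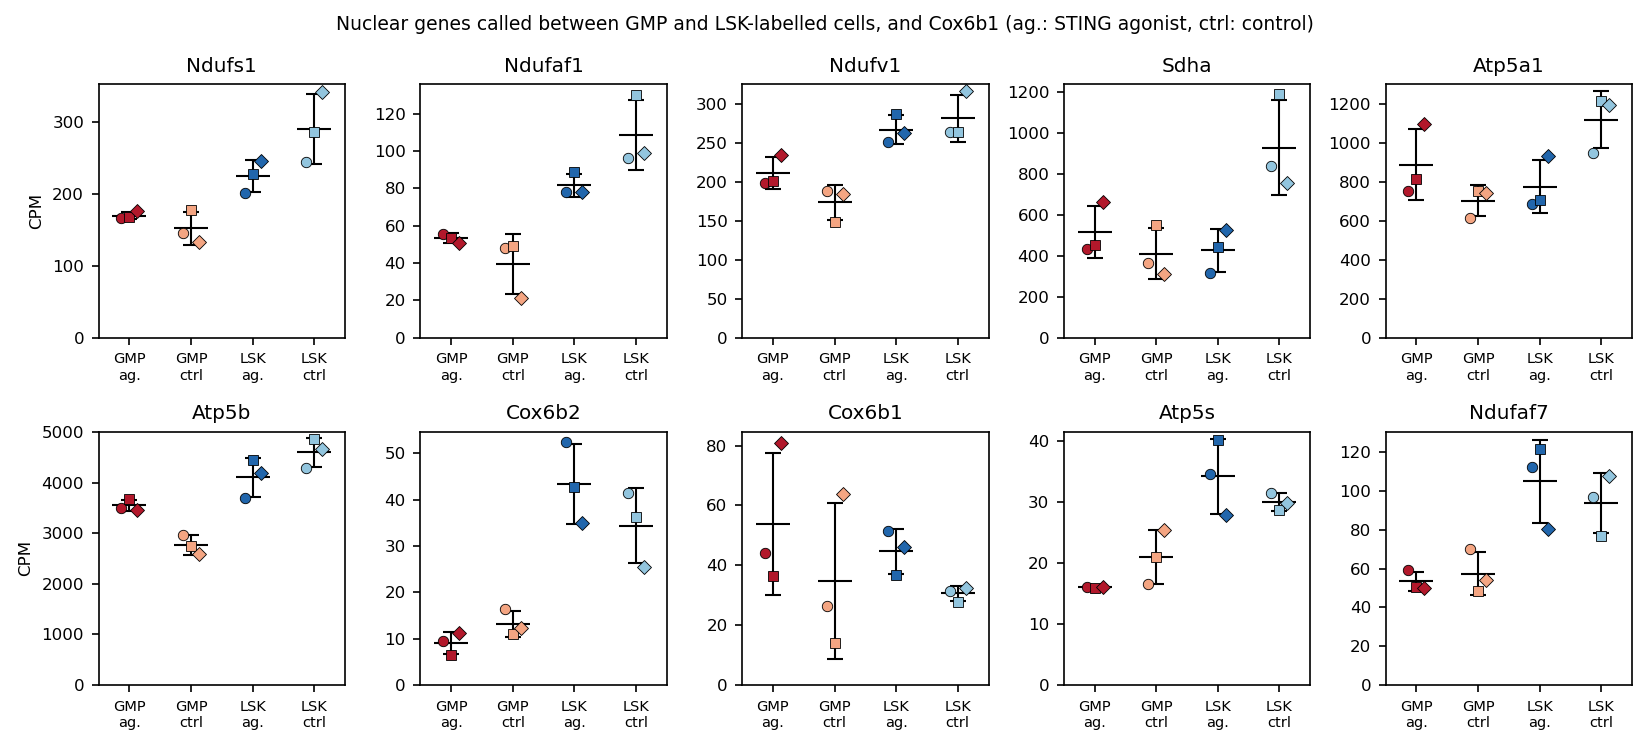
CPM of the 9 nuclear members called lower in GMP than in LSK-labelled cells, in controls or after the agonist, and of Cox6b1, in each library, with the mean and SD of each group of 3. For Cox6b2 the GMP libraries lie at 6.53 to 16.4 CPM and the LSK-labelled libraries at 25.5 to 52.4 CPM, while those of Cox6b1 overlap.

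GMP were also compared with LSK-labelled cells after the agonist. Of the 11 mitochondrially encoded genes tested, edgeR called 3 lower in GMP, and of the 88 nuclear members 3 lower. Of all genes 9.42% were called, 4.85% lower and 4.57% higher. A change of the cell-type difference with the agonist is the interaction above, for which edgeR called no member. mt-Co1 had 5864, 5717 and 2969 CPM in GMP given the agonist, against 12989.5, 11952 and 8891 CPM in LSK-labelled cells given the agonist (-1.26 ± 0.28, adjusted p = 0.0144, edgeR). mt-Nd4 had 798, 806 and 512 CPM in GMP and 1506, 1545 and 1231 CPM in LSK-labelled cells (-1.06 ± 0.24, adjusted p = 0.0146). mt-Cytb had 4171, 4318 and 3179.7 CPM in GMP and 6844, 7555 and 5632 CPM in LSK-labelled cells (-0.83 ± 0.20, adjusted p = 0.0200). Libraries were fully apart in all 3. mt-Atp6 (-0.91, adjusted p = 0.0564) and mt-Nd1 (-0.74, adjusted p = 0.0611) did not pass, all 11 were below 0 and the median was -0.83. The 3 calls were 0 without LSK-labelled agonist replicate 1, and 1 without LSK-labelled agonist replicate 2 or GMP agonist replicate 3. DESeq2 and limma-voom called 5 each. Over all genes DESeq2 called 1557 higher and 1229 lower of 15268, and limma-voom 1322 higher and 997 lower of 16857. These libraries also enter the comparisons with controls, so the results are not independent of each other.

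Of the nuclear members, Cox6b2 (ENSMUSG00000051811, chr7:4751792-4753094) had 9.40, 6.53 and 11.2 CPM in GMP given the agonist, against 52.4, 42.7 and 35.03 CPM in LSK-labelled cells given the agonist (-2.31 ± 0.32, adjusted p = 0.000839). It kept its call with any library left out and under every other setting tried. Atp5s, a coupling factor of ATP synthase, had 16.1, 15.8 and 16.1 CPM in GMP and 34.6, 40.1 and 27.9 CPM in LSK-labelled cells (-1.15 ± 0.27, adjusted p = 0.0175). Ndufaf7, a methyltransferase that assists complex I assembly, had 59.2, 50.7 and 50.2 CPM in GMP and 113, 122 and 80.5 CPM in LSK-labelled cells (-1.03 ± 0.24, adjusted p = 0.0187). Neither pair of groups overlapped. The calls of Atp5s and Ndufaf7 were lost with some libraries left out, at adjusted p of up to 0.0937 and 0.0873: the nuclear count was 1 without LSK-labelled agonist replicate 1 or 2 or without GMP agonist replicate 2 or 3, and 5 without LSK-labelled agonist replicate 3. Sdhd (-0.53), Cox7a2l (-0.52), Cox4i2 (3.70), Ndufs1 (-0.45), Ndufaf1 (-0.66), Cox6a1 (-0.62) and Ndufv1 (-0.38) were next by p and did not pass, with adjusted p of 0.127 to 0.211. The nuclear median was -0.20, with 24 of 88 above 0, against 50.5% of all genes.

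Complex IV has nuclear subunits with tissue-restricted isoforms. Cox6b2 over Cox6b1 was 0.213, 0.179 and 0.139 in GMP given the agonist, 0.623, 0.796 and 0.191 in GMP controls, 1.02, 1.17 and 0.762 in LSK-labelled cells given the agonist and 1.32, 1.30 and 0.787 in LSK-labelled controls. These are ratios of CPM between genes with 1108 and 708 bases of exon, to be compared between libraries and not between genes. The ratio of GMP controls reached into the range of LSK-labelled libraries, and Cox6b1 itself had 44.1, 36.5 and 81.0 CPM in GMP given the agonist, 26.3, 13.9 and 63.8 CPM in GMP controls, 51.4, 36.6 and 46.0 CPM in LSK-labelled cells given the agonist and 31.6, 27.8 and 32.4 CPM in LSK-labelled controls. Cox4i1, the common form of the subunit that binds ATP, had 65.3 to 323 CPM, and its hypoxia-linked isoform Cox4i2 5.25, 3.68 and 4.41 CPM in GMP given the agonist, 2.34, 3.12 and 4.11 CPM in GMP controls, and at most 0.945 CPM in any LSK-labelled library. The GMP and LSK-labelled libraries were apart for Cox4i2 in both treatments, but edgeR called neither difference (3.33 ± 1.47 in controls, adjusted p = 0.175). After the agonist its adjusted p was 0.025 to 0.202 over 7 other settings, of which 2 called it, and 0.0325 to 0.341 with a library left out. Cox6a2, the heart and muscle form of Cox6a1, had 4.34, 2.38 and 3.12 CPM in GMP given the agonist, 1.11, 1.25 and 1.45 CPM in GMP controls and at most 0.971 CPM in LSK-labelled libraries; its log2 change with the agonist in GMP was 1.43 ± 0.65 (adjusted p = 0.547). Cox7a1, the muscle form, reached 1.13 CPM and Cox7b2 0.123 CPM, while Cox7a2 had 70.4 to 192 CPM and Cox8a 168 to 426 CPM. The c-ring of ATP synthase is encoded by Atp5g1, Atp5g2 and Atp5g3, which yield the same mature protein, and these had 129.6 to 389, 104 to 382 and 188 to 356 CPM. Ndufa4, a complex IV subunit despite its name, had 25.9 to 161 CPM, with GMP control replicate 3 the highest. Of the isoforms listed for 1 cell type, Cox8c had 91 counts in LSK-labelled agonist replicate 2 and 0 in the other 5 LSK-labelled libraries, and Ndufa4l2 and Cox8b had 2 and 1 counts in all GMP libraries together.

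Levels spread widely among the nuclear members. By length, the most abundant of each complex were Ndufc2 for complex I (192 CPM per kb), Sdhd, a membrane anchor, for complex II (731), Cyc1 for complex III (273), Cox6a1 for complex IV (654) and Atp5b for complex V (887). Atp5b alone held 16.6% to 31.1% of the nuclear sum. A mean of at least 100 CPM was reached by 33 of the 90, and 8 stayed under 10 CPM in every library: Cox4i2, Cox6a2, Cox7a1, Cox7b2, Ndufa1, Ndufb6, Ndufs3 and Atp5k. Of these, Ndufa1, Ndufb6, Ndufs3 and Atp5k encode subunits found in all tissues, and their low levels, such as 0.750 to 3.28 CPM for Ndufa1, are given as counted. For 20 nuclear members more than 10% of 50-base windows occur in another annotated gene, with the highest share, 64.1%, in the assembly factor Ndufaf2.

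Promoters of nuclear members were searched for motifs of factors known to drive respiratory genes, on both strands, from 250 bases before to 50 bases after the gene start in RefSeq (GRCm38.p6). A promoter was found for 73 of the 90. The NRF1 motif, whose letters are the first run of capitals in the Cox6a1 sequence, was in 7 of them (9.59%), against 1.47% of the promoters of 17491 protein-coding genes. The ETS motif CCGGAAG, bound by GABP, was in 18 (24.7%), against 12.9%, and the YY1 motif AAGATGGC in 10 (13.7%), against 3.57%. A match is a description of the letters and does not show binding. Cox6a1, among the nuclear members with the smallest p in LSK-labelled cells, is shown because it holds both an NRF1 and an ETS match, marked in capitals (chr5:115348909-115349208, minus strand). The Cox6b1 promoter (chr7:30626065-30626364, minus strand) holds an ETS match, and that of Cox6b2 (chr7:4753045-4753344, minus strand) holds none of the 3 motifs in this window. At least 1 of the 3 motifs was in 31 of the 73 (42.5%), against 16.9% of all 17491. Most of the 73 members searched thus hold no exact match in this window.
Cox6a1: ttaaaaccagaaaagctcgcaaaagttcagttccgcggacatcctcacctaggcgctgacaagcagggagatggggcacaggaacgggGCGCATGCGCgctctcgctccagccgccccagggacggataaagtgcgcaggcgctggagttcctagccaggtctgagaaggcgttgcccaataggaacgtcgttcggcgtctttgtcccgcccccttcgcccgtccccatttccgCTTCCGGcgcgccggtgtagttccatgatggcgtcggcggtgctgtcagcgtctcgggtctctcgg
Cox6b1: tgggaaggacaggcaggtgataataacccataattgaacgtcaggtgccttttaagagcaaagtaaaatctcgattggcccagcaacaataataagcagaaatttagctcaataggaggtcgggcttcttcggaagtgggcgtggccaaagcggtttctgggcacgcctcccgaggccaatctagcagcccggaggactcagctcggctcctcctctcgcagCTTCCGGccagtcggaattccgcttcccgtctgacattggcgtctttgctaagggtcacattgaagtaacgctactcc
Cox6b2: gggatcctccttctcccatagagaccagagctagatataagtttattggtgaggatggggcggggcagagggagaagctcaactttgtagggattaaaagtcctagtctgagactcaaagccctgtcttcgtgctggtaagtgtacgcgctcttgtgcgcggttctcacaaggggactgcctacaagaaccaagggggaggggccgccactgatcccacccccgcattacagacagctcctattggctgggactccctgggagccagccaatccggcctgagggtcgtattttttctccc

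The genes that serve the respiratory chain were read from lists of electron carriers, further assembly factors, mitochondrial DNA transcription, mitochondrial RNA processing, nuclear regulators, the tricarboxylic acid cycle, antioxidant enzymes and protein import. No gene of these lists was called for the agonist in LSK-labelled cells or in GMP by edgeR. Of the 18 genes of mitochondrial DNA transcription and replication tested in LSK-labelled cells, 0 were higher and 2 lower at an unadjusted p under 0.05. Of all genes 5.82% were higher and 5.98% lower. The median log2 change of the 18 was -0.05, against 0.02 for all genes. In GMP all 14 tricarboxylic acid cycle genes were above 0 with the agonist, against 46.3% of all genes. Their median was 0.33 and their smallest adjusted p by edgeR 0.466. At an unadjusted p under 0.05, 2 were higher, against 4.3% of all genes.

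Between the cell types some of these genes were called by edgeR, most of them lower in GMP, to be read against 6.98% of all genes called lower and 4.55% higher in controls. In controls 9 of 18 mitochondrial RNA processing genes were lower in GMP and 0 higher, with a median of -0.75. The polynucleotide phosphorylase Pnpt1 (-1.56 ± 0.25), the RNase Z enzyme Elac2 (-1.46 ± 0.36), Fastkd2 (-1.16 ± 0.21) and Ptcd3 (-1.15 ± 0.18) had the largest log2 differences of those called. Of 14 tricarboxylic acid cycle genes, 7 were lower and 0 higher, with citrate synthase Cs at 132 ± 25.1 CPM in GMP controls and 259 ± 55.5 CPM in LSK-labelled controls (SD, n = 3 each). Dlst and Suclg2 were lower as well, with log2 differences of -1.05 and -1.04. Of 6 antioxidant genes, 3 were lower (Txnrd2 at -1.47, Prdx3 at -1.46 and Sod2 at -0.69) and the peroxiredoxin Prdx5 was higher, at 462 ± 110.3 CPM in GMP controls and 179.8 ± 31.2 CPM in LSK-labelled controls. Protein import had 4 of 19 lower, among them the chaperones Hspd1 (-1.15) and Hspa9 (-1.22), with Timm44 (-0.79) and Tomm40 (-0.61). Assembly factors had 4 of 37 lower (Coa5, Cox15, Sdhaf2 and Tmem70), and of 11 nuclear regulators tested only the hypoxia factor Hif1a was called, higher in GMP (0.86 ± 0.19). The electron carriers (17 tested) and the genes of mitochondrial DNA transcription and replication (18 tested) had 0 called, with 4 and 7 lower and 0 and 1 higher at an unadjusted p under 0.05. At that level 13.9% of all genes were lower and 11.7% higher. With a library left out, some calls were often lost: Tomm40 was called in 1 of 12 such fits (adjusted p up to 0.151), Timm44 in 2 (0.160), Sod2 in 6 (0.119), Elac2 and Cox15 in 7 each (0.121 and 0.165), Cs in 8 (0.0697) and Coa5, Dlst and Txnrd2 in 9 each. Pnpt1, Fastkd2, Ptcd3, Suclg2, Sdhaf2, Tmem70, Prdx3, Prdx5, Hspd1, Hspa9 and Hif1a were called in all 12.

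After the agonist fewer of these genes were called by edgeR, beside 4.85% of all genes called lower and 4.57% higher. In mitochondrial RNA processing 3 of 18 were lower in GMP (Rexo2, Pnpt1 and Ptcd3), and in the tricarboxylic acid cycle 0 of 14 were lower and 1, Idh2, was higher, at 162 ± 61.9 CPM in GMP given the agonist and 49.4 ± 27.1 CPM in LSK-labelled cells given the agonist. The mitochondrial transcription list had 2 lower, Mterf1a (-1.83 ± 0.45) and Primpol (-1.66 ± 0.48). Prdx3 (-1.30), Txnrd2 (-1.30) and Txn2 (-0.79) were lower and Prdx5 (1.08) and Hif1a (1.02) higher, and of the assembly factors Sdhaf2 (-0.91) and Tmem70 (-0.75) were lower and Foxred1 (0.89) higher. Electron carriers (17 tested) and import (19 tested) had 0 called, with 1 and 6 lower and 1 and 0 higher at an unadjusted p under 0.05. At that level 11.5% of all genes were lower and 12.5% higher. With a library left out, Primpol was called in 1 of 12 fits (adjusted p up to 0.204), Pnpt1 in 3 (0.154), Txn2 in 6 (0.155), Mterf1a, Ptcd3, Foxred1 and Tmem70 in 7 each, Rexo2 and Txnrd2 in 8 each, Idh2 in 9 and Sdhaf2 in 11. Prdx3, Prdx5 and Hif1a were called in all 12. No gene of any of these lists was called for the difference of the agonist effect between GMP and LSK-labelled cells; whether fewer genes separate the cell types after the agonist was not tested.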

How the data were processed

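RNA was amplified by Smart-Seq2 from bone marrow cells, per the labels' protocols, in 12 libraries. For GMP and for LSK the authors deposited a table of raw read counts (whole numbers, genes by library), which also holds their log2 fold change and adjusted p-value, per the file headers. No aligner, counter, strand setting or test is named in the labels or headers. The build mm9 stands in the submitters' processing notes, but 94.7% (LSK) and 94.9% (GMP) of matched gene positions were those of GRCm38 in GENCODE M21, so positions are given as GRCm38.

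Cell type and replicate number came from titles and treatment from its own label. The 24982 genes in both tables were used for comparisons across cell types, and each table alone for the agonist. Levels are counts per library total; tests were edgeR 4.0.16 quasi-likelihood fits in R 4.3.3 with TMM factors, filterByExpr and Benjamini-Hochberg adjustment over all genes, tested on simulated data. The SE is the log2 change over the root of F. Common biological variation was 74.0% in LSK-labelled and 54.0% in GMP libraries. Alternatives were DESeq2 1.42.0, limma-voom 3.58.1, other scalings and filters, a replicate block, left-out libraries and a joint fit. Exon lengths are unions of GENCODE exons.

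The members and the gene lists were chosen with earlier results of these data known. By rule the text names all mitochondrially encoded genes, called nuclear members of 5 CPM or more in the group where they are higher (up to 12 per direction), further nuclear members up to 10 by p, isoform sets, the most abundant member per complex and up to 4 called genes per list. Sequence windows of 50 bases were compared over GENCODE transcripts. Replicates differed by far more than sampling noise, and reads carry no molecular identifiers. Each table's 1 empty line was left out. Some genes that this rule covers are not reported here.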

Additional observations from a re-analysis of the deposited data

Results flagged for a closer look

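The ratio of the mitochondrially encoded to the nuclear sum differed between the cell types in its response. Its agonist mean over its control mean came to 0.805 for GMP and 1.721 for LSK-labelled cells. Every agonist library was below the controls in GMP and above them in LSK-labelled cells. In GMP, agonist replicates 1 and 2 (1.019 and 1.019) lay just under the lowest control (1.040). The low GMP mean thus rests largely on agonist replicate 3 (0.628). The difference between the cell types was not tested on this ratio. Ndufaf1, an assembly factor of complex I, also separated in opposite directions, with a log2 change of 0.51 in GMP and -0.27 in LSK-labelled cells. In GMP it had 55.8, 53.6 and 50.8 CPM with the agonist and 48.3, 49.1 and 21.2 CPM in controls. The size of its GMP change thus rests largely on control replicate 3, and the other control libraries lay close to the agonist libraries. The interaction for Ndufaf1, 0.82 ± 0.40, had an adjusted p of 0.509 by edgeR.

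Signal appeared in genes outside the members. The 7 chromosome 1 copies of mitochondrial genes summed to at least 68.5 CPM in every LSK-labelled agonist library, against at most 52.0 CPM in LSK-labelled controls. Cox8c, listed for LSK only, had 91 counts in LSK-labelled agonist replicate 2 and 0 in the other 5 LSK-labelled libraries.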

How the results depend on the processing

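The counts of members called by edgeR depended on the setting, and the cause was not tested. In LSK-labelled cells the mitochondrially encoded count of 1 was 6 with DESeq2, 4 with no filter, 0 with the joint fit and 0 with the replicate block, and 0 to 1 with a library left out. The nuclear count of 0 was 4 with DESeq2 and 2 with no filter. Over all genes DESeq2 called 263 higher and 256 lower and the unfiltered fit 272 and 285, against 47 and 0. Between GMP and LSK-labelled controls the nuclear count of 7 was 11 with limma-voom (2 of them higher) and 3 to 8 with a library left out, and the mitochondrially encoded count of 0 was 1 with DESeq2, 1 with limma-voom and 0 to 1 with a library left out. After the agonist the nuclear count of 3, all lower in GMP, was 5 with limma-voom and 1 to 5 with a library left out, with 2 higher by limma-voom, 2 higher without LSK agonist replicate 3 and 1 higher by DESeq2, and the mitochondrially encoded count of 3 was 5 with DESeq2, library size alone or limma-voom and 0 to 4 with a library left out. For the interaction DESeq2 called 1 nuclear and 1 mitochondrially encoded member, not 0. Replicate numbers are not said to mark a shared animal or day. Correlations of the deviations of same-numbered libraries between agonist and control were 0.16, -0.06 and 0.02 in GMP and -0.02, 0.07 and -0.11 in LSK-labelled cells. Between GMP and LSK-labelled cells all 6 were positive (0.132, 0.0618 and 0.237 with the agonist; 0.0567, 0.189 and 0.390 in controls), but not every pair passed 0.1, the level required to treat them as paired. With the replicate block the counts between cell types were 7 and 3 nuclear members, as without it, and the block changed no other of these counts by over 1.5 times. Medians that changed sign did so with a library left out: nuclear in GMP (-0.13 to 0.49), mitochondrially encoded in GMP (-0.40 to 0.0596), nuclear between controls (-0.20 to 0.54) and nuclear for the interaction (-0.69 to 0.0066). With TMM-scaled totals the nuclear sum averaged 15180.5 CPM in GMP and 17883 CPM in LSK-labelled cells given the agonist, and without assembly factors 14014.5 and 15847 CPM. Of 1845 alternatives for 105 named results, 0 reversed, 175 lost and 36 gained a call. Most of these results were named for a small p in the same libraries. A reversed sign was therefore unlikely from the start, and the 0 is no measure of stability.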
